A study of Mus musculus with 8 samples.

Results

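The transcripts of 10 genes of Polycomb repressive complex 2 (PRC2) were followed through the differentiation of mouse embryonic stem cells (ESCs): the core subunits Ezh2, Ezh1, Eed and Suz12, the histone-binding subunits Rbbp4 and Rbbp7, and the cofactors Jarid2, Mtf2, Phf19 and Phf1. They were taken by symbol from gene-level read counts of 24421 genes, and all 10 were listed in each library. The cells were of the R1 line, which is 1 line of pluripotent cells, so the replicates are cultures of 1 genetic background. Undiff cells had no retinoic acid (RA). The labels describe them as kept for 4 days in ESC medium, with embryoid bodies as the tissue, while the methods of the study describe R1 cells kept with LIF, the factor that maintains pluripotency. Day4 cells were embryoid bodies, aggregates of differentiating ESCs, that had grown for 4 days and then received RA, an inducer of differentiation, for another 4 days. The RA dose is given as 2 µM in the series design and as 2 mM in the protocol label. Polyadenylated RNA was sequenced on Oxford Nanopore (ONT) flow cells with the ONT Direct RNA kit, in which the native RNA strand passes through the pore, and with the ONT cDNA kit, in which the RNA is copied into cDNA beforehand. Each state had 2 replicates on each platform, giving 8 libraries, and the methods describe the replicates as grown and treated separately. Both platforms were run on RNA of these cultures, so they are not independent replicates of the change.

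PRC2 places methyl groups on lysine 27 of histone H3, a mark of silenced genes. EZH2 or its paralogue EZH1 is the catalytic subunit, EED binds the mark and SUZ12 holds the complex together, while RBBP4 and RBBP7 are histone-binding WD40 proteins that also serve in other chromatin complexes. The core joins either a Polycomb-like protein (PHF1, MTF2 or PHF19), forming PRC2.1, or JARID2 and AEBP2, forming PRC2.2. In ESCs the complex sits at the promoters of many developmental regulators that are held off until the cells differentiate.

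Reads on genes numbered 283461 to 907489 per Direct RNA library and 948657 to 2088592 per cDNA library, and replicate 2 was the deeper library in each group. Levels are given as CPM, reads per 1e6 reads on genes. A count of 0 allows up to 3 reads, which is between 1.44 and 10.6 CPM in these libraries, and intervals and floors cover counting error only. The states carried the labelled identity at the RNA level: all 8 markers of pluripotent cells were lower at Day4 on both platforms. Pou5f1, a pluripotency factor, held 2026 and 2184 CPM in the Undiff replicates and 7.06 and 62.4 CPM in the Day4 replicates of Direct RNA. Of the 7 neural markers, Stmn2 and Tubb3 were lower at Day4 on both platforms and Ncam1 was higher. The counts for the whole neural list are given with the marker sums below.

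Promoters of the genes were read from the RefSeq table of GRCm38.p6, in windows of 250 bases before to 50 bases after each start, because several members moved together. All 10 genes had an entry, with 12 windows in all. The 3 stretches below hold a match to a word of the E2F binding motif, the element of cell cycle genes, and are shown because these matches are the least common of the motifs searched. Capitals mark the match, and each run is written 5′ to 3′ on the strand of the gene.
Ezh2, chr6:47595004-47595043, minus strand: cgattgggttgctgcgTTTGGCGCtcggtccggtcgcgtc
Suz12, chr11:79992871-79992910, plus strand: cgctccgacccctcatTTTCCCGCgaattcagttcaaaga
Phf19, chr2:34914161-34914200, minus strand: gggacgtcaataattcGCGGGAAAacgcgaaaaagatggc

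The words searched were TTTCCCGC, TTTGGCGC, TTTCGCGC and TTTGCCGC on both strands, none of which contains another motif searched. The match began at base 4 after the start in Ezh2 and at 219 and 208 bases before the start in Suz12 and Phf19. Thus 3 of the 10 genes held a word, and 2.26% of 32851 windows of the same length did. CCAAT, on either strand, was found in 7 of the 10 genes, and CCGGAAG, a core of the ETS motif, in 0 of the 10. Counted by window, as the share of all windows is, 3 of the 12 windows held an E2F word, 8 held CCAAT, against 37.4% of all windows, and 0 held CCGGAAG, against 8.86%. A match is a description of letters and no evidence of binding. Of the genes described below, Suz12 had an E2F match and was lower at Day4, Ezh2 had a match and no call, Phf19 had a match and was called lower by edgeR but not by DESeq2, and Eed, Jarid2 and Mtf2 had no match and were lower.

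The 100 bases before the start are given for the 4 genes called lower at Day4 in Direct RNA, since these carry the main change. Capitals mark CCAAT on either strand, which among these 4 stretches falls only in that of Suz12. Jarid2 and Mtf2 have 2 starts in the table, of which the one nearer the 5′ end of the gene is shown, and the 100 bases before the other start of Mtf2 hold 1 CCAAT.
Suz12, chr11:79993006-79993105, plus strand: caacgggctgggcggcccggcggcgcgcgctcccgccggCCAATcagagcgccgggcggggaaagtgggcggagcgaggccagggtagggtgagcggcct
Eed, chr7:89980977-89981076, minus strand: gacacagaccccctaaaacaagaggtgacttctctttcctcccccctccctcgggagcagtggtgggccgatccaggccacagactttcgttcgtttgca
Jarid2, chr13:44730674-44730773, plus strand: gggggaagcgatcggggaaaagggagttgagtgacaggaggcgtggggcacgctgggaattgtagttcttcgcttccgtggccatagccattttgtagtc
Mtf2, chr5:108065574-108065673, plus strand: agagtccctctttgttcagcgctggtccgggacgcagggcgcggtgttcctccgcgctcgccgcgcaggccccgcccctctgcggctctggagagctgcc

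The main comparison asked which PRC2 transcripts differ between Undiff and Day4. Eed, Jarid2 and Mtf2 were lower at Day4 on both platforms, by 3.29-fold to 5.53-fold, and Suz12 was lower by 2.90-fold in Direct RNA. The catalytic subunits Ezh2 and Ezh1 and the histone-binding subunits Rbbp4 and Rbbp7 were not called on either platform. Phf19 and Phf1 had few reads, and neither was called by DESeq2. A gene was called where DESeq2 gave an adjusted p no higher than 0.05, the shrunken log2 fold change was 1 or more in size, and the normalized count averaged 5 or more. In Direct RNA 4 of the 10 genes were called lower and 0 higher, where 7.67% of 9646 genes tested were called lower and 9.54% higher. In cDNA 3 of the 10 were called lower and 0 higher, where 9.24% of 10271 genes were called lower and 8.69% higher. An unadjusted p of at most 0.05 was reached by 5 of the 10 on each platform, a count with no share of all genes taken at that limit. The edgeR quasi-likelihood test called 5 lower and 1 higher in Direct RNA, against 15% and 18.6% of all genes, and 5 lower and 0 higher in cDNA, against 15.4% and 17.1%. In these bulk samples, fewer cells of a type and less RNA per cell cannot be told apart.

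**Figure D1:**
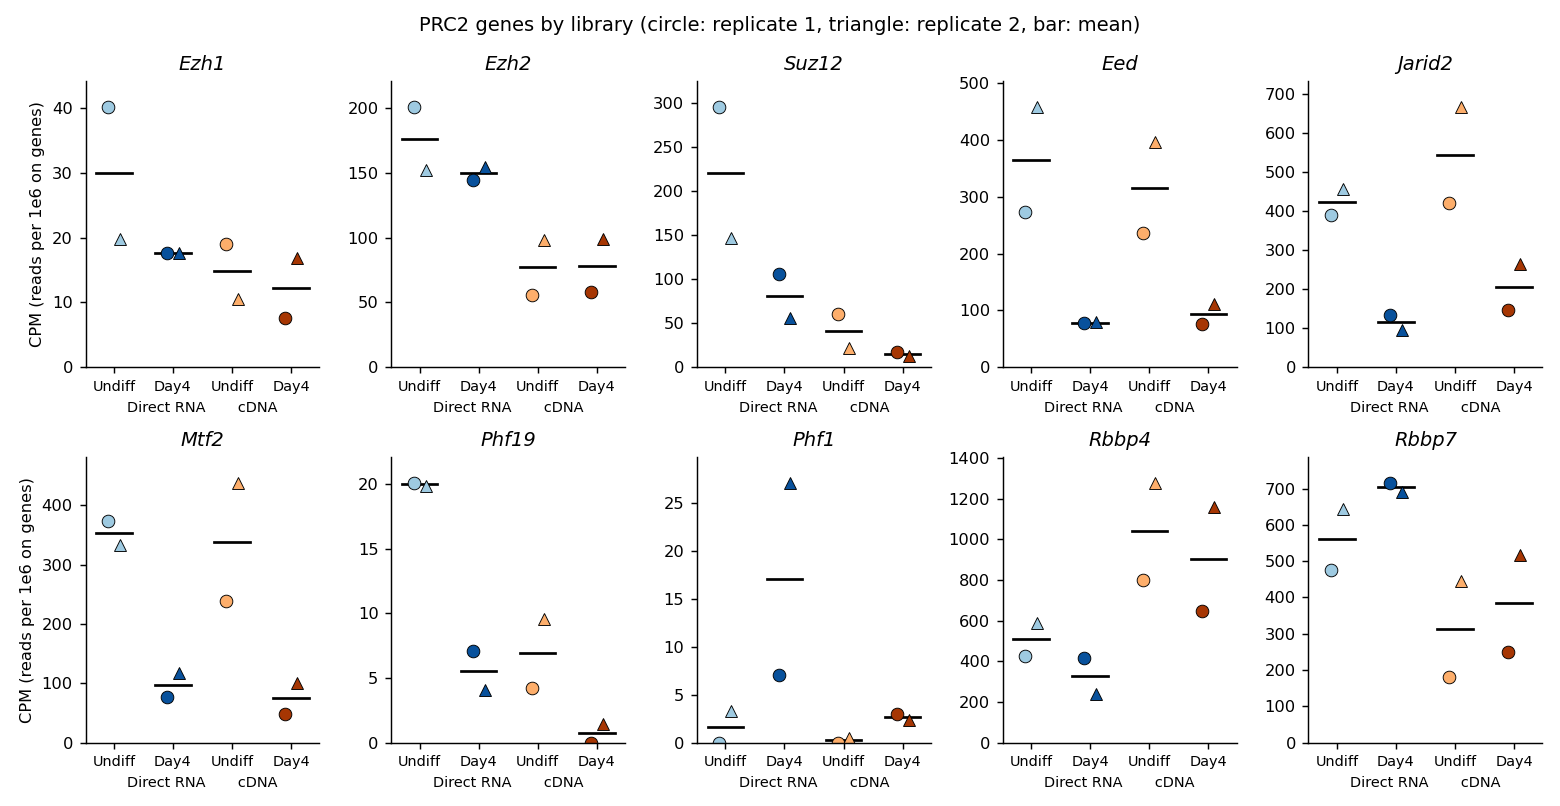
Level of each PRC2 gene in the 8 libraries, in reads per 1e6 reads on genes (linear axis from 0, its range differing by gene). Circles are replicate 1, triangles replicate 2 and bars the mean of 2 replicates. In Eed, Jarid2 and Mtf2 both Day4 libraries lie below both Undiff libraries on each platform, while in Ezh2 the states overlap.

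Ezh2 encodes the main catalytic subunit in dividing cells and lies on chromosome 6, positions 47530139 to 47595341 (GRCm38), on the minus strand. Its Direct RNA levels were 201 and 152 CPM in Undiff and 145 and 155 CPM at Day4. In cDNA they held 55.9 and 98.2 CPM in Undiff and 57.7 and 98.7 CPM at Day4. The states thus overlapped on both platforms, and in cDNA the replicates of 1 state lay farther apart than the means of the states. The log2 fold change was -0.32 ± 0.40 (SE) in Direct RNA and -0.31 ± 0.48 in cDNA, with DESeq2 adjusted p of 0.820 and 0.885. The 95% intervals, -1.10 to 0.47 and -1.26 to 0.64, exclude a fall of the size seen in Eed but allow a fall of more than 2-fold. With libraries scaled by their reads on genes, the cDNA value of Ezh2 was 0.015.

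Ezh1, the paralogue that predominates in non-dividing cells, is on chromosome 11 at 101191115 to 101226463, minus strand, and had between 5 and 35 reads per library. Direct RNA gave 40.2 and 19.8 CPM in Undiff and 17.6 and 17.6 CPM at Day4, a difference that rests on few reads. cDNA gave 18.97 and 10.5 CPM in Undiff and 7.59 and 16.8 CPM at Day4, with overlapping states. The log2 fold changes were -0.75 ± 0.84 and -0.57 ± 0.77, with adjusted p of 0.778 and 0.850. From pooled reads, the ratio of Day4 to Undiff was 0.692 in Direct RNA (exact 95% interval 0.366 to 1.27) and 1.01 in cDNA (0.643 to 1.58), both of which include no change.

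Eed encodes the subunit that reads the trimethylated histone tail. It lies on chromosome 7 at 89954654 to 89980983, minus strand. Undiff held 273 and 458 CPM in Direct RNA and 236 and 396 CPM in cDNA. Day4 held 77.6 and 78.6 CPM in Direct RNA and 75.1 and 112 CPM in cDNA. Every Day4 library was below every Undiff library, also across platforms. The log2 fold change was -2.30 ± 0.41 in Direct RNA and -2.05 ± 0.42 in cDNA, with DESeq2 adjusted p of 1.36e-06 and 3.46e-05, and these correspond to levels 4.93-fold and 4.13-fold lower. Eed had the largest fitted fall in Direct RNA among the 4 genes called there. Its 95% interval, -3.11 to -1.49, overlaps those of the others, and the order changed without Undiff replicate 2.

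Suz12, the scaffold subunit, is on chromosome 11 at 79993106 to 80034123, plus strand. In Direct RNA its level was 296 and 147 CPM in Undiff and 106 and 55.6 CPM at Day4. In cDNA it was 60.1 and 21.5 CPM in Undiff and 17.4 and 12.5 CPM at Day4, from 23 to 57 reads per library. The states did not overlap on either platform, and replicate 1 was the higher library in all 4 groups. The log2 fold change was -1.54 ± 0.48 (adjusted p = 0.0160) for Direct RNA. For cDNA it was -1.69 ± 0.66 (adjusted p = 0.0833). The Direct RNA call was lost with replicate number as a block (-1.50, adjusted p = 0.0552), and the cDNA value passed in edgeR (-1.71, adjusted p = 0.00586).

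Rbbp4 and Rbbp7 encode closely related histone chaperones. Rbbp4 is on chromosome 4 at 129307100 to 129335370, minus strand, and Rbbp7 on chromosome X at 162760402 to 162779092, plus strand. Rbbp4 held 425 and 591 CPM in Undiff and 416 and 237 CPM at Day4 in Direct RNA. In cDNA Rbbp4 held 799 and 1279 CPM in Undiff and 649 and 1161 CPM at Day4. The states did not overlap for Rbbp4 in Direct RNA, though its 2 middle libraries were 425 and 416 CPM, and they overlapped in cDNA. Its log2 fold change was -0.77 ± 0.36 (adjusted p = 0.171) and -0.53 ± 0.40 (adjusted p = 0.539). Rbbp7 held 476 and 645 CPM in Undiff and 716 and 691 CPM at Day4 in Direct RNA, with no overlap. In cDNA Rbbp7 held 181 and 445 CPM in Undiff and 250 and 518 CPM at Day4, where replicate differences were larger than the state difference. Its log2 fold change was 0.21 ± 0.30 (adjusted p = 0.861) and -0.040 ± 0.47 (adjusted p = 0.975), and the second of these was 0.28 when libraries were scaled by reads on genes.

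Jarid2, a DNA-binding cofactor of PRC2.2, lies on chromosome 13 at 44729474 to 44921643, plus strand. Direct RNA Undiff held 390 and 455 CPM and Day4 134 and 94.9 CPM. cDNA Undiff held 421 and 666 CPM and Day4 146 and 263 CPM. The states did not overlap, within a platform or across both. The fall was 3.99-fold in Direct RNA (log2 -2.0 ± 0.36, adjusted p = 2.21e-06) and 3.29-fold in cDNA (log2 -1.72 ± 0.41, adjusted p = 0.000627). The cDNA call was lost without Undiff replicate 2 (-1.44, adjusted p = 0.116) and without Day4 replicate 1 (-1.36, adjusted p = 0.138).

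Mtf2, the Polycomb-like cofactor that recruits PRC2.1 to CpG-rich DNA, lies on chromosome 5 at 108065674 to 108109004, plus strand. It held 373 and 333 CPM in Undiff and 77.6 and 118 CPM at Day4 in Direct RNA. In cDNA it held 238 and 438 CPM in Undiff and 48.6 and 100.1 CPM at Day4. All 4 Day4 libraries were below all 4 Undiff libraries. The log2 fold change was -1.88 ± 0.38 (adjusted p = 3.46e-05) for Direct RNA and -2.47 ± 0.45 (adjusted p = 2.50e-06) for cDNA, or 3.67-fold and 5.53-fold lower. Mtf2 had the largest fitted fall in cDNA among the 3 genes called there, though its 95% interval, -3.35 to -1.58, overlaps those of Eed and Jarid2.

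Phf19 and Phf1, the other Polycomb-like genes, were near the limit of detection. Phf19 lies on chromosome 2 at 34893757 to 34914026, minus strand, and had 7 and 18 reads in Undiff and 2 and 3 reads at Day4 in Direct RNA. In cDNA Phf19 had 4 and 20 reads in Undiff and 0 and 3 reads at Day4. Its levels, 20.1 and 19.8 CPM against 7.06 and 4.07 CPM and 4.22 and 9.58 CPM against 0 and 1.44 CPM, did not overlap between states. The pooled read ratio of Undiff to Day4 was 4.06 in Direct RNA (exact 95% interval 1.53 to 13.6) and 8.94 in cDNA (2.72 to 46.4), intervals that compare the pooled libraries and leave out the spread between replicates. DESeq2 gave adjusted p of 0.406 and 0.144, and edgeR gave 0.0359 and 0.00220.

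Phf1 is on chromosome 17 at 26933052 to 26937908, plus strand. It had 0 and 3 reads in Undiff and 2 and 20 reads at Day4 in Direct RNA. In cDNA it had 0 and 1 reads in Undiff and 4 and 5 reads at Day4. Of the 22 Day4 reads of Direct RNA, 20 were in replicate 2. The Undiff libraries with 0 reads allow up to 8.61 CPM (Direct RNA) and 3.16 CPM (cDNA), above the 7.06 CPM of Direct RNA Day4 replicate 1 and the 3.03 and 2.41 CPM of cDNA Day4, so the states could not be separated library by library at this depth. The pooled read ratio of Day4 to Undiff was 9.02 in Direct RNA (exact 95% interval 2.71 to 47.1) and 8.05 in cDNA (1.12 to 353). Its mean normalized count was under 5 in both DESeq2 fits, where adjusted p was 0.295 and 0.636. The edgeR adjusted p was 0.00823 in Direct RNA, with a call, and 0.276 in cDNA.

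**Figure D2:**
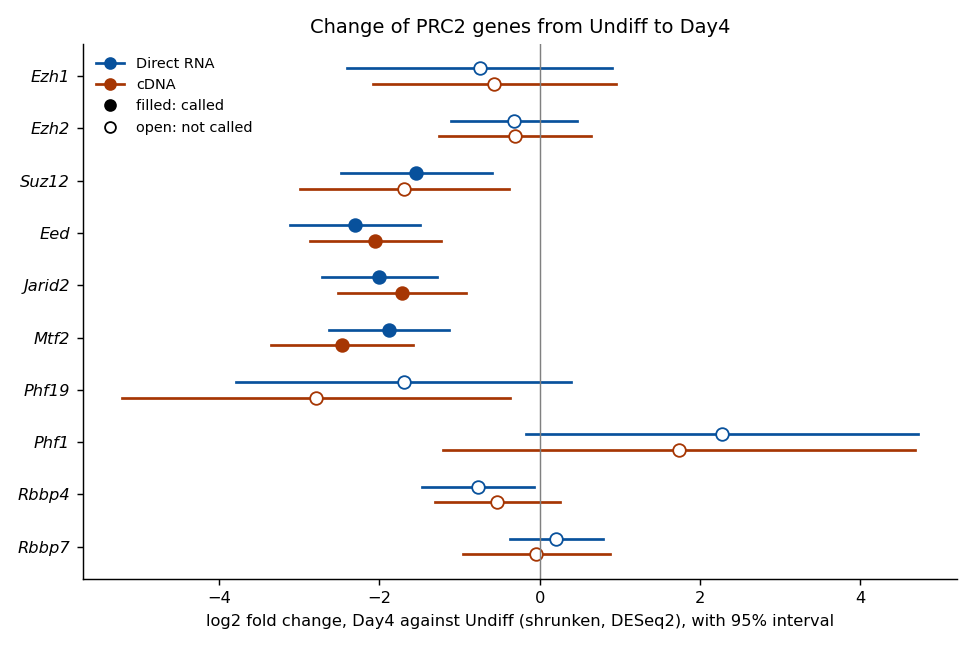
Shrunken log2 fold change of each PRC2 gene from Undiff to Day4 (DESeq2) with its 95% interval, for Direct RNA and cDNA. Filled points are called and open points are not. Eed, Jarid2 and Mtf2 are filled on both platforms at -2.47 to -1.72 and Suz12 in Direct RNA only, and Phf1 and Phf19 have the widest intervals. The cDNA values of Ezh2 and Rbbp7 change sign when libraries are scaled by their reads on genes.

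By level alone, 7 of the 10 genes had both Day4 libraries below both Undiff libraries in Direct RNA, where 30.4% did among 9964 genes whose mean was 5 reads or more, and 2 (Phf1 and Rbbp7) had both above, where 36.9% did. In cDNA 5 of the 10 were below, against 22.2% of 10578 such genes, and 1 (Phf1) was above, against 44.1%. All 10 genes reached that mean in Direct RNA and 9 in cDNA, where Phf1 did not. These counts take 0 reads as 0 CPM, and with 0 reads at the limit of 3 reads Phf1 is separated on neither platform. Summed over the 10 genes, Direct RNA held 2494 and 2823 CPM in Undiff and 1704 and 1479 CPM at Day4, with no overlap. The same sum in cDNA was 2014 and 3364 CPM in Undiff and 1255 and 2285 CPM at Day4, and here the states overlapped. All 4 Direct RNA calls rested on Undiff replicate 2: without it none passed, with log2 fold changes of -1.81 for Eed and Jarid2, -1.92 for Mtf2 and -1.91 for Suz12 and adjusted p between 0.0722 and 0.152. Without it the calls over all genes went from 1660 to 393. Suz12 was also lost without Undiff replicate 1 (-1.08) and without Day4 replicate 2 (-1.10) of Direct RNA.

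A test of platform by state asked whether the change itself differed between Direct RNA and cDNA. None of the 10 genes was called, and none had an unadjusted p of at most 0.05 in DESeq2 or in edgeR, where DESeq2 called 0.0116% of 17267 genes. The differences in log2 fold change, cDNA minus Direct RNA, were 0.25 (95% interval -0.89 to 1.39) for Eed, 0.26 (-0.77 to 1.30) for Jarid2 and -0.62 (-1.78 to 0.54) for Mtf2. For Suz12 the difference was -0.23 (-1.94 to 1.48), and it was 0.051 with scaling by reads on genes. These intervals hold differences of 2-fold in either direction for Suz12, and in 1 direction for Eed, Jarid2 and Mtf2.

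Shares of reads within groups of related genes need no scaling between libraries. They count reads without correction for transcript length and are compared only between libraries. With 2 libraries against 2, an exact permutation test cannot give a two-sided p under 0.333, so the shares are described.

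RBBP7 and RBBP4 occupy the same place in the complex. Rbbp7 took 52.9% and 52.2% of the reads of the pair in Undiff and 63.2% and 74.5% at Day4 in Direct RNA. In cDNA Rbbp7 took 18.5% and 25.8% in Undiff and 27.8% and 30.9% at Day4. The share was higher at Day4 in each platform without overlap, by 16.3 and 7.18 percentage points (exact p = 0.333 in both). In cDNA the counting intervals of the nearest libraries overlapped. They were 24.4% to 27.3% for Undiff replicate 2 and 25.3% to 30.4% for Day4 replicate 1 (95% Wilson intervals). The platforms differed more than the states did.

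Among the Polycomb-like genes Mtf2 took most reads in every library. Its share was 94.2% ± 0.984 in Undiff and 81.9% ± 3.91 at Day4 in Direct RNA (SD, n = 2), and 98.0% ± 0.357 and 95.2% ± 1.54 in cDNA. Phf1 took 0 of 137 and 3 of 323 reads in Undiff and 2 of 26 and 20 of 110 reads at Day4 in Direct RNA. In cDNA it took 0 of 230 and 1 of 936 reads in Undiff and 4 of 68 and 5 of 216 reads at Day4. The share of Phf1 at Day4 was 7.69% (95% Wilson interval 2.14 to 24.1) and 18.2% (12.1 to 26.4) in Direct RNA, and 5.88% and 2.31% in cDNA. The share of Phf19 overlapped between states in Direct RNA. In cDNA Phf19 took 1.74% and 2.14% in Undiff and 0% and 1.39% at Day4, where the 0 of 68 reads allows up to 5.35% (95% Wilson interval).

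Jarid2 marks PRC2.2 and the Polycomb-like genes mark PRC2.1. Of the reads on Jarid2, Mtf2, Phf19 and Phf1, Jarid2 took 49.8% and 56.1% in Undiff and 59.4% and 38.9% at Day4 in Direct RNA, with overlapping states. In cDNA its share was 63.4% and 59.8% in Undiff and 73.8% and 71.7% at Day4, without overlap. Of the reads on Ezh1 and Ezh2, Ezh1 took 16.7% and 11.5% in Undiff and 10.9% and 10.2% at Day4 in Direct RNA, and its Day4 shares of 11.6% and 14.6% lay between the Undiff shares of 25.4% and 9.69% in cDNA.

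**Figure D3:**
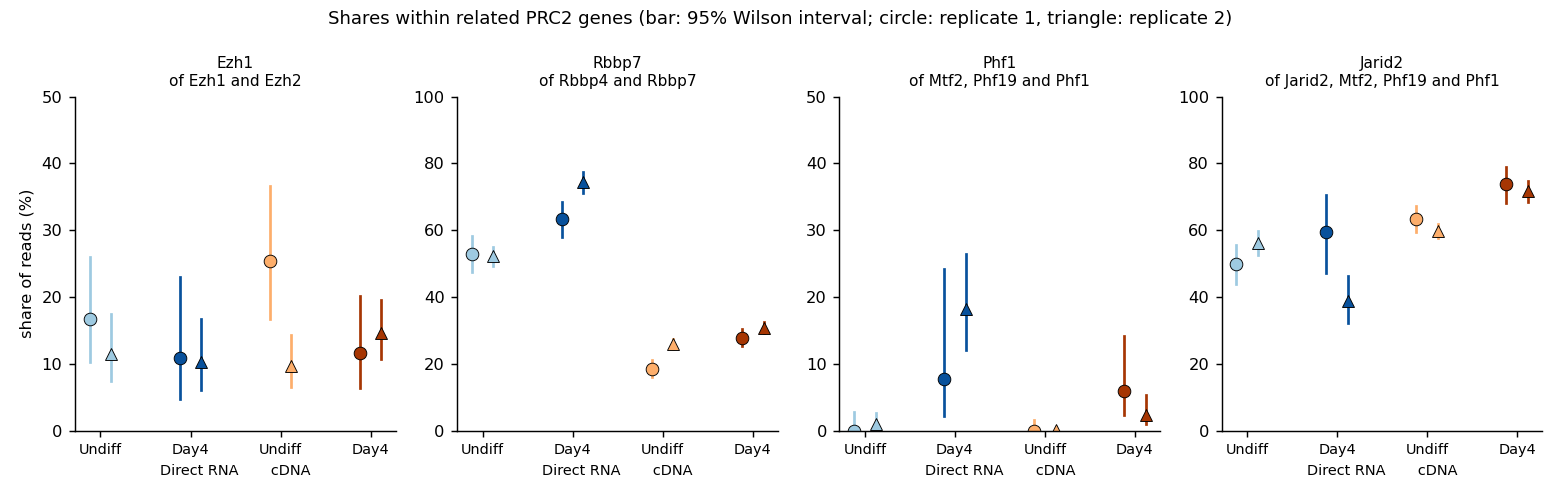
Share of reads (%) that Ezh1, Rbbp7, Phf1 and Jarid2 took within their groups of related genes, per library, with 95% Wilson intervals. Circles are replicate 1 and triangles replicate 2, and the vertical axes run to 50% or 100%. The Rbbp7 share is higher at Day4 on each platform, though the intervals of cDNA Undiff replicate 2 and cDNA Day4 replicate 1 overlap. Its Direct RNA values, 52.2% to 74.5%, lie above its cDNA values, 18.5% to 30.9%.

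The platforms were compared in a fit of the 8 libraries that also held a term for state. Rbbp4 and Jarid2 were higher in cDNA, with log2 differences of 1.96 ± 0.25 (adjusted p = 8.23e-14) and 1.31 ± 0.23 (adjusted p = 6.26e-08). Suz12 was lower in cDNA, at -1.58 ± 0.42 (adjusted p = 0.000730). In Suz12 every cDNA library at 12.5 to 60.1 CPM lay below the Direct RNA libraries of the same state. In all, 2 of the 10 genes were called higher in cDNA, where 24.7% of 10426 genes were, and 1 lower, where 26.6% were. Eed, at 0.72 ± 0.26, had an adjusted p of 0.0157 but stayed under the fold limit. Ezh2 (-0.32), Mtf2 (0.49), Rbbp7 (-0.15) and Ezh1 (-0.014) were not called, nor were Phf19 (-0.98) and Phf1 (-1.74).

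The scaling moves these values. Scaling by reads on genes, as CPM does, shifted the median of all genes by -0.71 in log2 relative to DESeq2 size factors. On that scale Jarid2 was at 0.59 and not called, Eed at -0.0009 and Mtf2 at -0.22 changed sign, and Ezh2 at -1.04 and Phf19 at -1.69 were called lower. Rbbp4 at 1.24 and Suz12 at -2.38 kept their calls on it. For the states the same scaling shifted the median by 0.10 in Direct RNA and 0.31 in cDNA, and no call of a PRC2 gene was lost or gained.

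**Figure D4:**
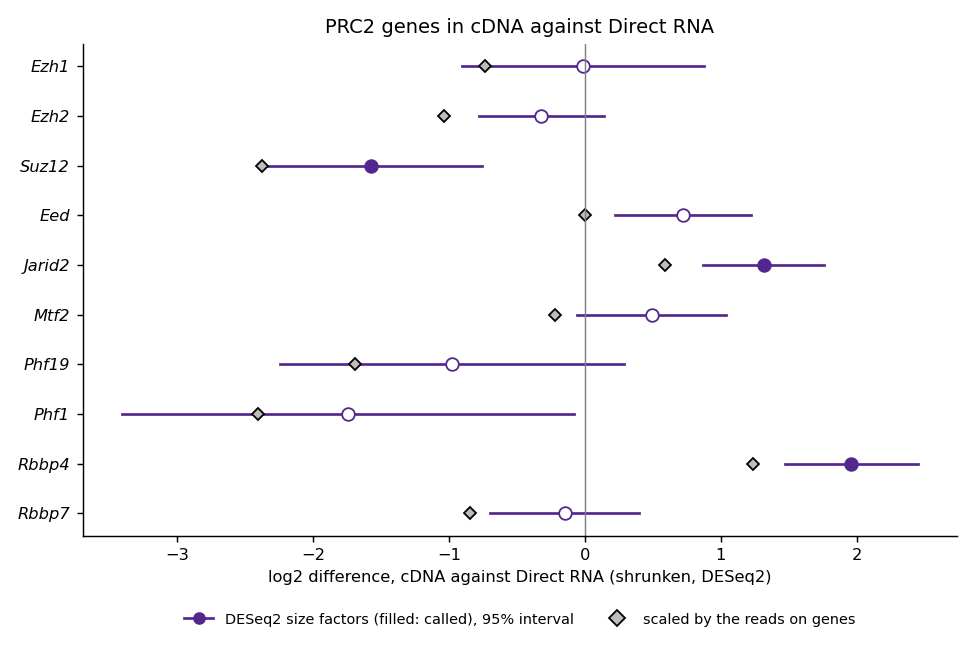
Log2 difference of each PRC2 gene between cDNA and Direct RNA (DESeq2, shrunken). Circles with 95% intervals use DESeq2 size factors and are filled where called, and diamonds use scaling by reads on genes. Rbbp4 lies above 0 and Suz12 below 0 on both scales, whereas Eed and Mtf2 change sign and Jarid2 loses its call with the latter scaling.

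Counting may have differed between the platforms too. Strand was used to count the Direct RNA reads, whereas no strand setting was stated for cDNA. Rbbp4 shares 518 exonic bases (11.8% of its 4407-base transcript) with Sync on the other strand, and Rbbp7 shares 174 bases (7.75% of 2244) with Txlng at its 3′ end. Without strand, reads of such partners cannot be told apart. In the other 8 genes the exons of the longest RefSeq-matched transcript overlap no such exon of a counted gene on either strand. Introns and other transcripts of these genes were not examined. Of all genes with an overlap on the other strand, 45.3% were lower in cDNA, against 23.8% of the genes without, and 16.8% were higher, against 25.8%. Of the overlapping pair, Rbbp4 was higher in cDNA and Rbbp7 was not called (-0.15, adjusted p = 0.833). Ambiguous reads made up 2.16% to 2.33% in Direct RNA and 7.65% to 8.45% in cDNA. Their part in the values of Rbbp4 and Rbbp7 was not tested.

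Across the 4 conditions, the order of CPM levels differed by gene. Direct RNA Undiff was highest for Ezh1, Ezh2, Suz12, Eed, Mtf2 and Phf19, cDNA Undiff for Jarid2 and Rbbp4, and Direct RNA Day4 for Phf1 and Rbbp7. With DESeq2 size factors cDNA Undiff was highest for Eed and Mtf2, and the highest condition was the same for the other 8 genes. The lower places of the order also depended on the scale, so the values that follow hold for CPM. In Ezh2, Direct RNA Undiff (176 ± 34.5 CPM) did not separate from Direct RNA Day4 (150 ± 7.02 CPM), nor cDNA Day4 (78.2 ± 29.0 CPM) from cDNA Undiff (77.0 ± 29.9 CPM). In Eed and Mtf2 both Undiff groups overlapped each other and both Day4 groups overlapped each other, with a gap between the states. In Jarid2 the gap between the states was also present, and cDNA Day4 (204 ± 82.9 CPM) lay above Direct RNA Day4 (114 ± 27.7 CPM) without overlap.

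The genes whose pattern was most like that of Ezh2 were Tacc3, Ttf1 and Sf3b4, with r between 0.973 and 0.976. For Ezh1 they were Arhgap12 (0.981), Patz1 (0.939) and Med1 (0.937). These are Pearson correlations of log2(CPM + 1) over 8 libraries after the mean of each platform was taken out, among 9123 genes with at least 20 reads on each platform. The points share depth and culture, and the closest of so many genes will be high, so they are given as a description. Tacc3 held 132 and 108 CPM in Undiff and 102 and 97.6 CPM at Day4 in Direct RNA.

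Other genes of the Polycomb and Trithorax systems were read from lists. Epop, listed as E130012A19Rik, a cofactor of PRC2.1, was the one gene called by DESeq2 among 3 tested of 5 further PRC2-associated genes, where 7.67% of all genes were lower in Direct RNA and 9.24% in cDNA. In Direct RNA edgeR called 2 of them lower, beside 15% of all genes, and 1, Lcorl, higher (2.70, adjusted p = 0.00238), beside 18.6%. With 3 genes tested, these counts are a description. Epop held 743 and 644 CPM in Undiff and 35.3 and 56.9 CPM at Day4 in Direct RNA, and 14.8 and 17.2 CPM against 1.52 and 1.93 CPM in cDNA. Its log2 fold change was -3.86 ± 0.37 (adjusted p = 3.54e-22) and -3.18 ± 0.92 (adjusted p = 0.00825). The cDNA call of Epop was lost in each fit without 1 library and with the replicate block (-2.95, adjusted p = 0.0666). Aebp2, the partner of Jarid2 in PRC2.2, had log2 fold changes of -0.91 ± 0.57 and -0.89 ± 0.49 and was not called by DESeq2, while edgeR called it lower in Direct RNA (-1.06, adjusted p = 0.0321). It held 106 and 117 CPM against 102 and 29.8 CPM in Direct RNA and 100.1 and 254 CPM against 80.4 and 156 CPM in cDNA.

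The demethylases that remove the PRC2 mark, Kdm6a and Kdm6b, were not called by DESeq2 on either platform. Of the 3 tests, 1 had an unadjusted p of at most 0.05, that of Kdm6b in cDNA. By edgeR it was called higher there, as 17.1% of all genes were. Kdm6b held 160 and 52.7 CPM in Undiff and 351 and 268 CPM at Day4 in cDNA. In Direct RNA it had 0 and 7 reads in Undiff and 2 and 6 reads at Day4, under the count limit, so the rise was seen on 1 platform only. Of 16 subunits of PRC1, the complex that binds the PRC2 mark or works beside it, 2 of 15 tested were higher and 2 lower in Direct RNA, and 1 of 13 higher and 3 lower in cDNA by DESeq2. Over all genes tested DESeq2 called 9.54% higher and 7.67% lower in Direct RNA and 8.69% and 9.24% in cDNA. In Direct RNA edgeR called 3 of the list higher and 2 lower, beside 18.6% and 15% of all genes. In cDNA it called 2 higher and 4 lower, beside 17.1% and 15.4%. Yaf2 was higher on both platforms (log2 3.58 and 3.39), and L3mbtl2 (-3.60 and -2.86) and Phc1 (-2.49 and -3.06) were lower on both. The median log2 fold change of the PRC1 list was 0.43 in Direct RNA and 0.24 in cDNA, beside 0.03 and 0.0019 for all genes tested. None of 5 tested subunits of PR-DUB, the H2A deubiquitinase, was called by DESeq2 on either platform, with 0 at an unadjusted p of at most 0.05. For this list edgeR called 0 in cDNA and 1, higher, in Direct RNA, where it called 18.6% of all genes higher. Of the subunits of the H3K4 methyltransferase complexes, which place the opposing mark, 3 of 7 were lower in Direct RNA, beside 7.67% of all genes, and 2 of 8 in cDNA, beside 9.24%, with Ash2l (-1.64 and -2.73) and Dpy30 (-1.49 and -1.54) on both.

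Of 26 developmental regulators known as PRC2 targets in ESCs, 7 had a mean count of at least 5 on each platform, and 5 of these did so on both. In Direct RNA 6 of the 7 were higher at Day4 and in cDNA 5 of the 7, with none lower, beside 9.54% and 8.69% of all genes tested. On neither platform did 17 of the 26 reach the count limit. A gene with few Undiff reads can reach it only through Day4, so the direction of such genes is fixed by the limit and is given as a description. Gata6, an endoderm factor, had 0 reads in all 4 Undiff libraries and 427 and 332 CPM at Day4 in Direct RNA and 47.0 and 74.6 CPM in cDNA. Hand2, a mesoderm factor, also had 0 reads in Undiff and held 250.5 and 129 CPM at Day4 in Direct RNA and 41.7 and 38.5 CPM in cDNA. Gata4, another endoderm factor, never exceeded 2 reads in Undiff and had 51.5 CPM or more in each library of Day4. The DESeq2 log2 fold changes of Gata6 were 8.13 (Direct RNA, adjusted p = 1.26e-12) and 6.83 (cDNA, adjusted p = 2.59e-07). Once replicate number was a block they were 1.67 (adjusted p = 0.832) and 1.57 (adjusted p = 0.796). Those of Hand2 went from 7.18 and 6.29 to 1.66 (adjusted p = 0.833) and 1.74 (adjusted p = 0.735). Each Undiff library is at 0 for both genes, so fitted values such as these are no measure of the size of the change.

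Marker levels of the labelled and of other cell types were summed in each library. The summed level of the 8 pluripotency markers was between 10656 and 23522 CPM in Undiff and between 85.0 and 923 CPM at Day4, with 1 marker at 0 in 1 cDNA Day4 library and none at 0 elsewhere. The 8 endoderm markers summed to between 1.44 and 8.61 CPM in Undiff, with 5 to 7 at 0, and to between 274 and 995 CPM at Day4, with at most 1 at 0. The 8 fibroblast or mesenchyme markers summed to between 16.9 and 120 CPM in Undiff with at most 4 at 0. At Day4 they summed to between 336 and 3147 CPM with at most 1 at 0. Not all of them moved with the sum. In Direct RNA edgeR called 6 higher and 1 lower, beside 18.6% and 15% of all genes. In cDNA it called 6 higher and 2 lower, beside 17.1% and 15.4%. In Direct RNA the endothelial markers summed to between 70.5 and 121 CPM in Undiff and 102 and 167 CPM at Day4, with overlap. In cDNA they summed to between 32.7 and 35.4 CPM, then 72.1 and 85.7 CPM. The Direct RNA sum hides opposite changes. Pecam1 held 115 and 61.7 CPM in Undiff and 21.2 and 47.5 CPM at Day4 there. Emcn had 0 reads in Undiff and held 21.2 and 32.5 CPM at Day4. Of 3 tested there, DESeq2 gave 2 as higher and 0 as lower, beside 9.54% and 7.67% of all genes. With edgeR 3 were higher and 1 lower, beside 18.6% and 15%. For cDNA DESeq2 gave 1 and 0 of 3, beside 8.69% and 9.24%, and edgeR 2 and 0, beside 17.1% and 15.4%. The neural markers summed to between 634 and 638 CPM in Undiff and 126 and 183 CPM at Day4 in Direct RNA. In cDNA they summed to between 640 and 804 CPM and 641 and 651 CPM, with overlap. There Ncam1 held 14.8 and 17.7 CPM in Undiff and 574 and 595 CPM at Day4. Stmn2 held 551 and 612 CPM, then 21.2 and 15.4 CPM, so the sum hides opposite changes. On each platform DESeq2 called 1 of the list higher and 2 lower, and edgeR 2 and 2. Over all genes DESeq2 called 8.69% to 9.54% higher and 7.67% to 9.24% lower, and edgeR 17.1% to 18.6% and 15% to 15.4%. Of 15 cell cycle genes, 1 was called lower in Direct RNA and 4 in cDNA with none higher by DESeq2, beside 7.67% and 9.24% of all genes lower. By edgeR 1 and 4 were lower, beside 15% and 15.4%, and 0 and 1 higher, beside 18.6% and 17.1%. The Direct RNA count is near the background, but a call needs a log2 fold change of 1 or more in size. Without that limit, 14 of the 15 had a negative log2 fold change in Direct RNA and 13 in cDNA. The list median was -0.74 and -0.65, and the summed level was between 4373 and 5912 CPM in Undiff and between 2947 and 3741 CPM at Day4. The part of these differences in the lower Eed, Jarid2, Mtf2 and Suz12 was not tested.

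**Figure D5:**
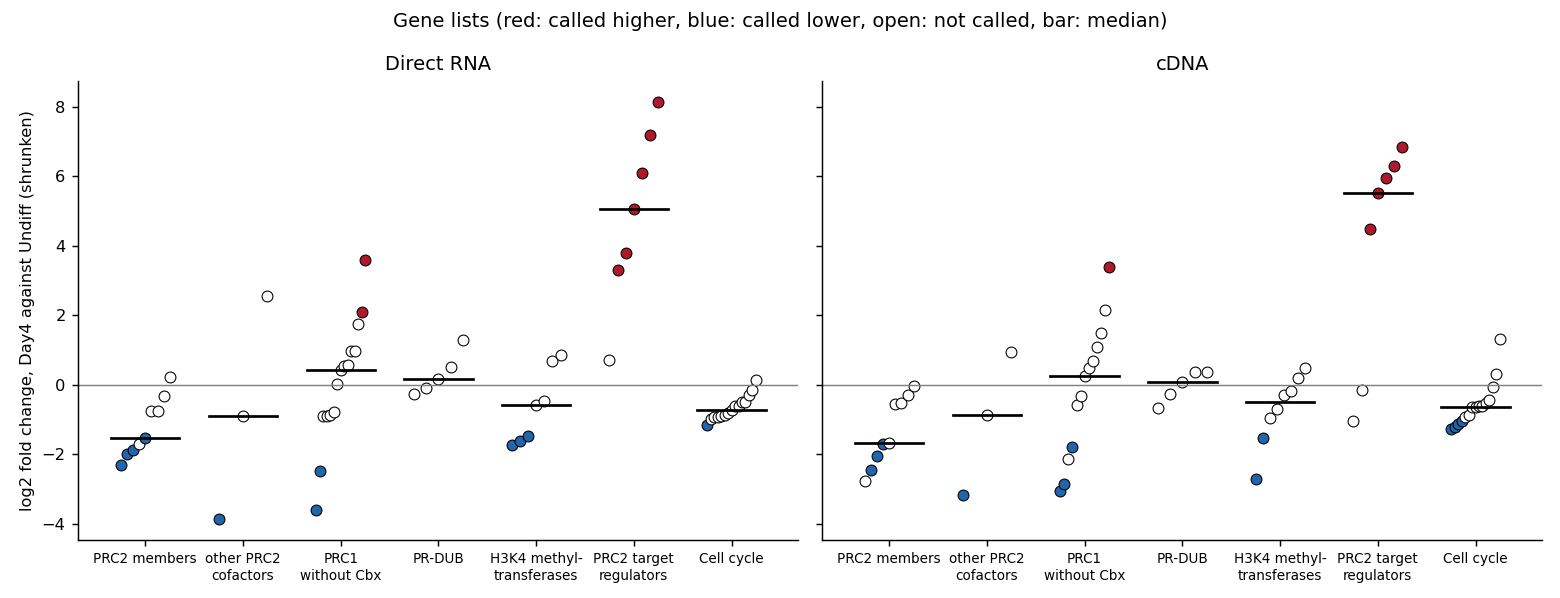
Shrunken log2 fold changes from Undiff to Day4 (DESeq2) of genes with a mean count of at least 5, by list, for Direct RNA and cDNA. Red points are called higher, blue points lower and open points not called, and bars are medians. The PRC2 members include 4 called genes in Direct RNA and 3 in cDNA, all below 0, while the PRC2 target regulators hold 6 and 5 called genes above 0, a direction that the count limit fixes for genes with few Undiff reads. Values of genes with no Undiff reads depend on the fit and are not bounds.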

How the data were processed

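The authors made the deposited values, whole-number read counts per gene, with htseq-count from minimap2 alignments of ONT reads to mm10, with the UCSC iGenomes annotation and no normalization. Direct RNA was counted by strand, and the strand setting for cDNA gene counts is not given in the sources used here. The 5 counter rows held unassigned reads and stayed out of all tests. Libraries were made from 500 ng (Direct RNA) or 50 ng (cDNA) of polyadenylated RNA. Groups and replicate numbers come from the labels.

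All genes were fitted with DESeq2 1.42.0 in R 4.3.3, with shrinkage, without Cook's cutoff or independent filtering, and with Benjamini-Hochberg adjustment over all genes. State was tested within each platform, platform with state as covariate, and their interaction without shrinkage, called by an adjusted p of at most 0.05 alone. The alternative was edgeR 4.0.16 (quasi-likelihood, TMM). Other alternatives were a filter of 10 reads in every library, a replicate block, no shrinkage and leaving out each library, and, added after seeing the data, size factors from reads on genes and a block with crossed Day4 numbers. The fits were tested on simulated counts. Of simulated 4-fold changes DESeq2 called 69% in Direct RNA, 52% in cDNA and 30% in the interaction. A gene without a call can therefore have changed by that much. Replicates of a group differed by 2.68 to 14.9 in chi-square per degree of freedom, so each entered the tests as its own sample. Reads of a state were pooled only for the ratios of low-count genes.

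Members and lists were chosen with earlier results of these data known. Named genes are all members, Aebp2, Pou5f1, at most 4 genes per list called in 1 direction on both platforms, and the 3 genes most like Ezh2 and Ezh1. A gene that this rule also names is not reported here. Lcorl, Kdm6a, Kdm6b, Pecam1, Sync and Txlng were named after their values were seen. Coordinates, lengths and overlaps come from GENCODE vM21 on GRCm38, with 98.4% of symbols matched, and promoters from RefSeq on GRCm38.p6.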

Additional observations from a re-analysis of the deposited data

How the results depend on the processing

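Log2 fold changes and counts of genes below are given under the alternatives that moved them. For the states in Direct RNA, edgeR called 1 member higher and 3325 genes in all where DESeq2 called 0 and 1660, requiring 10 reads in each library left 723 calls and the replicate block 843. Leaving out 1 library gave between 0 and 4 members called lower and between 393 and 797 calls over all genes, with the lone library of a group assumed to vary like the others. In cDNA edgeR called 5 members lower and 3406 genes where DESeq2 called 3 and 1842, the filter left 989 calls, and leaving out 1 library left between 709 and 1020. Ezh1, Phf19 and Phf1 do not reach 10 reads in every library, so the filter gave no value for them, except Ezh1 in cDNA.

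Among the members, Rbbp7 in cDNA was 0.14 with the filter, 0.0029 with the replicate block and 0.28 with scaling by reads on genes, and Ezh2 was 0.015 with that scaling. Without 1 library Rbbp7 lay between -0.11 and 0.46 for Direct RNA and between -0.56 and 0.61 for cDNA, and Ezh2 between -0.66 and 0.043 for cDNA. The cause was not tested.

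The test of platform by state called 2 genes with DESeq2, 14 with edgeR and 1 each with TMM factors, the filter and scaling by reads on genes, and between 0 and 13 without 1 library. In it Ezh2 was 0.089 with edgeR, 0.093 with TMM factors, 0.0082 with the filter, 0.0025 with the replicate block and 0.24 with scaling by reads on genes, where Suz12 was 0.051. Without 1 library the values ranged from -0.35 to 0.76 for Ezh1, -0.27 to 0.28 for Ezh2, -0.92 to 0.82 for Suz12, -0.22 to 0.63 for Eed, -0.044 to 0.50 for Jarid2, -2.26 to 1.01 for Phf1, -0.10 to 0.65 for Rbbp4 and -0.71 to 0.33 for Rbbp7.

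Between the platforms, the filter left 1 member called higher, with Jarid2 at 0.91, and 1674 calls over all genes. Scaling by reads on genes called 3 members lower and 1 higher, with Eed at -0.0009 and Mtf2 at -0.22. Ezh1 was 0.052 with edgeR and 0.049 with TMM factors. Without 1 library Ezh1 ranged from -0.20 to 0.22 and Rbbp7 from -0.40 to 0.066.

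Replicate numbers are shared by label only. Differences between replicates correlated, over 1395 genes, at 0.21 between the states in Direct RNA, 0.50 in cDNA, 0.12 between the platforms in Undiff and -0.42 at Day4. The block left 843 calls in Direct RNA, 1375 in cDNA and 5049 between the platforms (5344 without it), and Suz12 in Direct RNA was the only call of a member it ended. With Day4 numbers crossed it gave 5081 calls between the platforms and 1 in the interaction. Over the 10 members and all alternatives, 456 values kept direction and side of the threshold, 11 fell below it, 6 passed it and 45 changed sign. Depth limits Phf1, Phf19 and Ezh1, with at most 35 reads in any library.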
